A study of Mus musculus with 22 samples.

Results

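The comparison described here asks what remains in the brains of old male C57BL/6J mice after a brief chemical exposure in young adulthood, in animals that received no inflammatory challenge. Its members are 7 of the 22 whole-brain RNA-seq libraries of the series, chosen by their labels: the 4 exposed libraries, called GWVeh, and the 3 unexposed libraries, called CtrlVeh. GWVeh mice were injected intraperitoneally once a day for 10 days, from 10 weeks of age, with pyridostigmine bromide at 0.7 mg/kg and permethrin at 200 mg/kg, and CtrlVeh mice with vehicle alone. All 7 mice were then aged to 17.5 months, and all were given the carrier used for cannabidiol, 5% Tween 80 in PBS, daily for 28 days and every 2 days for another 2 weeks. All 7 received a PBS injection 24 h before the brain was taken. The remaining 15 libraries are exposed mice given cannabidiol at 30 mg/kg (GWCBD30) and the same 3 treatments after lipopolysaccharide (LPS). LPS was given at 0.33 mg/kg, 24 h before the brain was taken. These libraries enter here through a shared estimate of the spread and where values are set side by side. The exposure is a mouse model of Gulf War illness, and both chemicals were given together, so a part of either alone cannot be told apart.

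Pyridostigmine bromide inhibits acetylcholinesterase, the enzyme that ends cholinergic signalling, and as a charged molecule it crosses the intact blood-brain barrier poorly. Permethrin, a pyrethroid insecticide, delays the closing of voltage-gated sodium channels and so prolongs neuronal firing. Immediate-early genes, which include the NR4A nuclear receptors, the FOS and EGR transcription factors and the cytoskeletal protein gene Arc, are transcribed within minutes of synaptic activity, largely through calcium signalling to the transcription factors CREB and SRF.

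The libraries held 17426178 to 25531445 counted reads in CtrlVeh and 20083212 to 24365241 in GWVeh, and 3 reads in a library corresponded to 0.116 to 0.171 CPM, the counts scaled to a common library size. Mitochondrially encoded transcripts made up 3.93% to 4.93% of counts. Neuronal, astrocyte, oligodendrocyte and cerebellar markers were all present, as whole brain requires, and a marker level in such bulk RNA cannot tell fewer cells of a type from less RNA per cell. Total counts, mitochondrial share, ribosomal protein share, globin share and number of genes detected did not separate the groups (two-sided exact permutation tests, p = 0.257 to 0.914, 35 arrangements, smallest possible p 0.0286). GWVeh4 lay nearest to the controls in most of the genes described below, and GWVeh1 and GWVeh2 mostly farthest. Among the LPS libraries set beside them, CtrlVehLPS replicate 1 stood apart, with summed cerebellar markers of 1094 CPM against 3014 and 3125 CPM in the other LPS controls.

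No gene passed the threshold. Of 56748 genes in the table, 20026 had enough reads to test, and 0 of them (0%) had an adjusted p under 0.05 in edgeR's quasi-likelihood test with Benjamini-Hochberg adjustment. The smallest adjusted p was 0.114, shared by Hap1 and Arl5b. At an unadjusted p under 0.05 there were 1762 genes, 964 higher in GWVeh (4.81%) and 798 lower (3.98%), and with upper-quartile scaling in place of TMM that split was 1203 higher and 636 lower. The 1762 became 1055 without CtrlVeh2, 1131 without GWVeh2, 2554 without GWVeh4 and 748 without GWVeh1 and GWVeh2 together. All 4 GWVeh libraries lay above all 3 CtrlVeh libraries for 962 genes (4.8%) and below them for 920 (4.59%). DESeq2 placed 7 genes past an adjusted p of 0.05 and limma voom with sample weights 176. The depth and the number of mice still bounded the differences: the 95% interval of the log2 fold change lay within 1 either way for 76.5% of tested genes and within 0.5 for 56.7%, with a median standard error of 0.09 among the 12752 genes at a mean log2 CPM of at least 2.

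The genes with the smallest p lay on both sides. Of those higher in GWVeh, Hap1 (chr11:100347327-100356128, GRCm38), a huntingtin-associated protein of vesicle transport enriched in hypothalamus, stood at 205, 201 and 186 CPM in CtrlVeh and at 257, 295, 277 and 225 CPM in GWVeh. Its groups did not overlap, and its log2 fold change was 0.42 ± 0.08 (SE, adjusted p = 0.114, 95% interval 0.25 to 0.58). Celf6, an RNA-binding regulator of splicing, stood at 20.4, 19.9 and 19.1 CPM in CtrlVeh and at 27.0, 28.2, 30.2 and 24.4 CPM in GWVeh, a log2 fold change of 0.47 ± 0.10 (adjusted p = 0.174). Every exposed library was above every control library here as well. Calr, the calcium-binding chaperone of the endoplasmic reticulum, lay at 226 to 243 CPM in CtrlVeh and at 256 to 298 CPM in GWVeh (0.27 ± 0.06, adjusted p = 0.354). Arhgap33, a GTPase-activating protein, Ehbp1l1 and Fxyd6, a regulator of the sodium pump, had log2 fold changes of 0.30, 0.42 and 0.27.

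Of the genes lower in GWVeh, Arl5b (chr2:15049395-15082456), a small GTPase of endosome to Golgi traffic, stood at 34.8, 40.3 and 34.4 CPM in CtrlVeh and at 22.2, 25.3, 26.1 and 28.1 CPM in GWVeh. The groups did not overlap, and the log2 fold change was -0.52 ± 0.10 (adjusted p = 0.114, 95% interval -0.72 to -0.32). Nufip2, an RNA-binding protein, lay at 44.1 to 45.7 CPM in CtrlVeh and at 30.4 to 40.8 CPM in GWVeh (-0.38 ± 0.09, adjusted p = 0.29). The centrosomal gene Cep350, the Mediator kinase-module gene Med13 and Tsc22d2 lay between -0.33 and -0.27 on the log2 scale, again without overlap. Fosl2, Nr4a3 and Slco1a4, which complete the 8 genes in this direction, are described with their gene groups. All 16 genes kept their direction under each of the 20 alternative settings, libraries left out included. That was nearly fixed in advance, since these genes were picked for a small p and their groups did not overlap. Their adjusted p depended on the setting: Hap1, Celf6, Trh and Arl5b passed 0.05 in 5 of the 20, without GWVeh4 among them, and Fosl2, Nr4a3 and Nufip2 in 4, while the largest adjusted p over the settings was 0.998 for each, without GWVeh1 and GWVeh2.

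**Figure D1:**
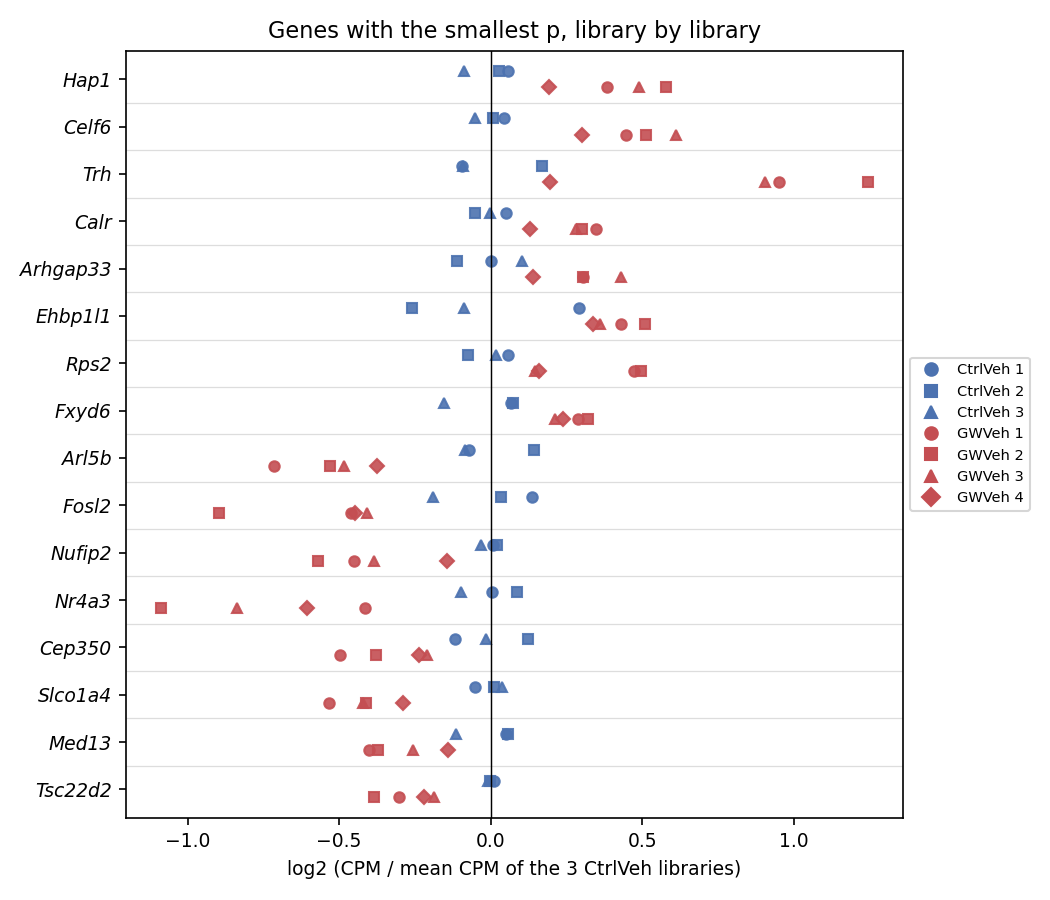
Levels of the 8 genes with the smallest p in each direction, as log2 of CPM relative to the mean of the 3 CtrlVeh libraries (x axis), 1 point per library. For each of the 16 genes the 4 GWVeh points (red) lie on one side of the 3 CtrlVeh points (blue), and GWVeh4 (diamond) is the nearest to them for Hap1, Celf6, Trh and Arl5b.

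Immediate-early genes were the group of neuronal activity that lay lower in GWVeh. Of 27 members tested, 21 had a negative log2 fold change, 8 were lower and 1 higher at an unadjusted p under 0.05, and 4 lay below the controls in every exposed library, against 3.98% lower, 4.81% higher and 4.59% without overlap over all genes. The list's median log2 fold change was -0.16, against 0.001 over all genes tested, and its summed level was 1254 to 1512 CPM in CtrlVeh and 1098 to 1337 CPM in GWVeh. None of the 27 passed the adjusted threshold. Each of the 3 NR4A receptors lay lower in GWVeh on average. Their promoters are shown because the 3 genes lie on separate chromosomes, point the same way and carry the same short motif, the core of the cAMP response element to which CREB binds, and Arl5b is shown beside them as the gene with the smallest p. The windows run from 250 bases before to 50 after the annotated start (RefSeq, GRCm38.p6): Nr4a1 chr15:101266596-101266895 on the plus strand, Nr4a2 chr2:57123954-57124253 on the minus strand, Nr4a3 chr4:48045055-48045354 on the plus strand and Arl5b chr2:15055070-15055369 on the plus strand. The Arl5b window lies inside the gene coordinates given above, which come from another annotation (GENCODE), and downstream of their start. Capitals mark TGACG or its reverse complement CGTCA, searched on both strands, with overlapping matches merged.
Nr4a1: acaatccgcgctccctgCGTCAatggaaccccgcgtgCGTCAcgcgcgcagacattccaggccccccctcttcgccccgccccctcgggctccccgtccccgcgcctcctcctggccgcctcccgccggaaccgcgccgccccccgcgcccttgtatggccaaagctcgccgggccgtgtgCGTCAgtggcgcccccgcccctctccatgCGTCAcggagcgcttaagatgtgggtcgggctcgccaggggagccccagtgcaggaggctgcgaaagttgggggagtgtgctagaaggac
Nr4a2: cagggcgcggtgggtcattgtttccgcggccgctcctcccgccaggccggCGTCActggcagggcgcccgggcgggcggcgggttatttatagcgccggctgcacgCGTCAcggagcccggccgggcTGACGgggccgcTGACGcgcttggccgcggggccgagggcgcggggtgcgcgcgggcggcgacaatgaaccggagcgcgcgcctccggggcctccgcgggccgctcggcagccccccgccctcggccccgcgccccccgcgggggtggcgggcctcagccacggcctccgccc
Nr4a3: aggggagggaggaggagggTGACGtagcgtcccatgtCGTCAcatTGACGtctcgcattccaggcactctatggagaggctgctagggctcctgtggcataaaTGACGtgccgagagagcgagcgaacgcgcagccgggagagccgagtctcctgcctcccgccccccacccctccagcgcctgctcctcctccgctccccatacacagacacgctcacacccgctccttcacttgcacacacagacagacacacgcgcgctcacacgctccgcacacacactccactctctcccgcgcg
Arl5b: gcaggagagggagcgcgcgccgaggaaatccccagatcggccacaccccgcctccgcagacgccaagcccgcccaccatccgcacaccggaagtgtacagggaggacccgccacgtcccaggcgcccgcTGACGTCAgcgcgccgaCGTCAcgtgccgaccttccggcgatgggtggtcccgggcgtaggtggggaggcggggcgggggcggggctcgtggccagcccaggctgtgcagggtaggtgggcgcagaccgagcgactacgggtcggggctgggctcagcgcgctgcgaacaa

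The 3 NR4A windows hold 4 matches each and the Arl5b window 3, of which a pair forms the full palindrome TGACGTCA. Over all 32851 RefSeq windows of that length, 20.8% hold at least 1 TGACG, 0.231% hold 4 or more and 1.79% hold TGACGTCA. Of the 27 immediate-early genes 22 matched a window, and 17 of those (77.3%) hold TGACG, against 23% of 27025 genes. The NR4A windows are shown for this motif, so their match counts are a description of chosen genes. The motif is not tied to one direction: the Fosl2 window holds none, while Npas4 and Celf6, both higher in GWVeh, have a window with 2 matches, and Hap1 and Trh one with 1. A match describes these letters only, and binding was not measured.

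Nr4a3, an orphan nuclear receptor, stood at 40.2, 42.6 and 37.5 CPM in CtrlVeh and at 30.1, 18.9, 22.5 and 26.4 CPM in GWVeh. The highest exposed library was below the lowest control, and the log2 fold change was -0.71 ± 0.16 (adjusted p = 0.317, 95% interval -1.03 to -0.39). Fosl2 (chr5:32135801-32157842), a FOS-family subunit of the AP-1 transcription factor, stood at 43.2, 40.3 and 34.5 CPM in CtrlVeh and at 28.6, 21.1, 29.7 and 28.8 CPM in GWVeh. Its groups did not overlap either, and its log2 fold change was -0.53 ± 0.11 (adjusted p = 0.174). Nr4a2, which is needed for midbrain dopamine neurons and is induced by activity elsewhere, stood at 41.0, 45.6 and 36.6 CPM against 27.4, 26.7, 36.3 and 40.6 CPM. GWVeh1 and GWVeh2 were low, GWVeh3 lay just under the lowest control and GWVeh4 lay within the control range (-0.32 ± 0.10, adjusted p = 0.441). Nr4a1, a receptor of the same family expressed widely in brain, stood at 102, 115 and 89.6 CPM against 74.0, 70.3, 82.4 and 93.5 CPM, with GWVeh4 inside the control range (-0.35 ± 0.15, adjusted p = 0.516).

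Other members were less even. Dusp5, a phosphatase that switches off ERK signalling, lay at 27.5 to 30.5 CPM in CtrlVeh and at 18.8 to 25.4 CPM in GWVeh, without overlap (-0.47 ± 0.16). Bdnf, a neurotrophin, did not overlap either (-0.38 ± 0.18). Dusp5 and Bdnf, like the members that follow, are named with their values seen. The prototypical Fos, Arc and Egr1 had log2 fold changes of -0.36, -0.31 and -0.16, and their groups overlapped. Npas4, a neuron-specific factor induced by calcium entry, lay the other way, at 14.0, 21.4 and 16.0 CPM in CtrlVeh and at 20.9, 28.2, 24.4 and 27.0 CPM in GWVeh (0.55 ± 0.21, adjusted p = 0.494).

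The LPS-treated libraries give a second look at the same exposure, since GWVehLPS and CtrlVehLPS share no library with the comparison above. There Nr4a3 stood at 32.7, 31.9 and 36.9 CPM in CtrlVehLPS and at 25.1, 30.2, 17.7 and 20.97 CPM in GWVehLPS, again without overlap (-0.52 ± 0.16, adjusted p = 0.428). Fosl2 lay at 37.3 to 41.2 CPM against 25.1 to 32.1 CPM (-0.39 ± 0.11, adjusted p = 0.351). Nr4a1 lay at 90.3 to 110 CPM against 48.6 to 78.3 CPM (-0.68 ± 0.15, adjusted p = 0.168). Npas4 was again higher, with a log2 fold change of 0.45. Over the list, 8 members were lower and 1 higher at an unadjusted p under 0.05 after LPS, against 3.86% lower and 3.86% higher over all genes, and the median was -0.20. Without CtrlVehLPS replicate 1 these were 6 lower, 0 higher and a median of -0.18, beside 415 lower and 495 higher over all genes. Dusp5, Bdnf and Klf4, a zinc-finger factor, did not share the sign, with log2 fold changes of 0.07, 0.09 and 0.46 after LPS. Over the whole table, of the 1762 genes at an unadjusted p under 0.05, 48.9% had the same sign after LPS, against 50.9% of all genes. The genes with the smallest p that were higher in GWVeh had negative values after LPS, none at an unadjusted p under 0.05. They were picked for a small p without LPS, so values nearer 0 after LPS were likely in advance. Hap1 was at -0.08 ± 0.08, Celf6 at -0.12 ± 0.10, Trh at -0.26 ± 0.18 and Calr at -0.02 ± 0.06. Mean Hap1 was 197 CPM in CtrlVeh, 263 in GWVeh, 251 in CtrlVehLPS and 238 in GWVehLPS, so CtrlVeh was the lowest group. Arhgap33 was at -0.08, Ehbp1l1 at -0.16, Rps2 at -0.09 and Fxyd6 at -0.10. On the lower side Arl5b, Nufip2 and Med13 stayed negative, at -0.24, -0.06 and -0.02. Cep350, Slco1a4 and Tsc22d2 were at 0.02, 0.13 and 0.003. After LPS 1 gene passed the threshold (0.00499%), the glial transcription factor Sox9, at a log2 fold change of 0.49 against 0.05 without LPS.

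**Figure D2:**
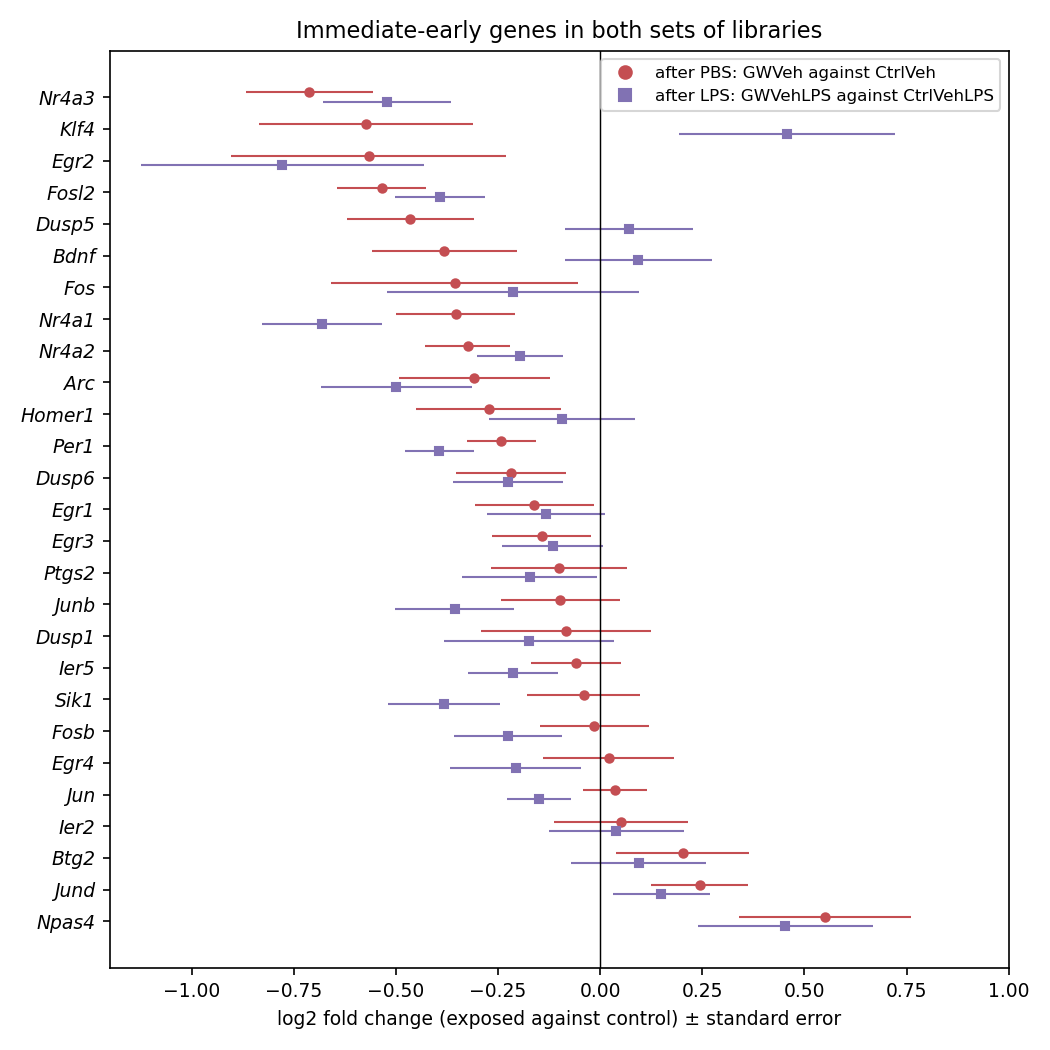
Log2 fold change of the 27 immediate-early genes with its standard error (x axis), exposed against control, after PBS (red circles) and after LPS (violet squares), ordered by the value after PBS. Nr4a3, Fosl2, Nr4a1 and Nr4a2 lie left of 0 in both sets, Npas4 right of 0 in both, and Klf4, Dusp5 and Bdnf lie on opposite sides in the 2 sets.

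Whether the exposure differed in size with and without LPS was tested for every gene, and 0 of 20026 (0%) passed, with a smallest adjusted p of 0.247 and 1688 genes at an unadjusted p under 0.05. Hap1 was among the genes with the smallest p in that test (0.42 without LPS, -0.08 with LPS, adjusted p = 0.247). For Nr4a3 the difference between states was 0.19 (adjusted p = 0.857). The immediate-early list rested on some libraries more than others. Leaving out each of the 7 in turn gave 5 to 9 members lower at an unadjusted p under 0.05, with 5 without GWVeh2. The medians were -0.22 to -0.10. Leaving out GWVeh1 and GWVeh2 together gave 5 and a median of -0.05. Over all genes 485 to 1175 were lower in the fits without 1 library, and 360 without GWVeh1 and GWVeh2.

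Cholinergic and sodium channel genes, which include the direct targets of the exposure chemicals, showed no shared direction. Of 23 cholinergic genes tested, 2 were higher and 0 lower at an unadjusted p under 0.05, against 4.81% and 3.98% over all genes. Their median log2 fold change was 0.04, and the summed level was 1034 to 1063 CPM in CtrlVeh and 1034 to 1124 CPM in GWVeh. Ache, the acetylcholinesterase that pyridostigmine inhibits, stood at 105, 108 and 117 CPM in CtrlVeh and at 125, 138, 127 and 108 CPM in GWVeh. GWVeh4 lay within the control range, and the log2 fold change was 0.18 ± 0.12 with a 95% interval of -0.07 to 0.42. The synthetic enzyme Chat was at 0.03 (95% interval -0.34 to 0.39), the choline transporter Slc5a7 at -0.08 (-0.52 to 0.36) and the related esterase Bche at -0.10 (-0.46 to 0.26). Among receptors, the nicotinic subunit Chrna4 stood at 49.3, 54.2 and 51.2 CPM against 57.3, 60.9, 63.1 and 54.0 CPM, overlapping only through GWVeh4 (0.19 ± 0.08, adjusted p = 0.504). The subunit Chrna2, confined to few neuron types, lay at 0.738 to 0.854 CPM against 0.831 to 1.95 CPM (0.87 ± 0.35, adjusted p = 0.495). The muscarinic receptors Chrm1, Chrm2, Chrm3 and Chrm4 lay between -0.07 and 0.07.

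Of 13 tested genes of voltage-gated sodium channels and their partners, 0 were higher and 1 lower at an unadjusted p under 0.05, with a median of -0.03. Over all genes 4.81% were higher and 3.98% lower. The counts and median of the channel list turned to 1 higher, 0 lower and 0.04 with the correction for GC content described below. Scn1a, the channel of fast-spiking interneurons, stood at 269, 293 and 252 CPM in CtrlVeh and at 225, 247, 237 and 266 CPM in GWVeh (-0.15 ± 0.07, adjusted p = 0.516), with GWVeh4 inside the control range. Scn2a, the channel of excitatory neurons, was at -0.15 and Scn8a, that of the axon initial segment, at -0.05 (95% interval -0.18 to 0.08). These intervals exclude a doubling or a halving of Ache, Chat, Scn1a and Scn8a mRNA, and enzyme activity and channel function were not measured.

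**Figure D3:**
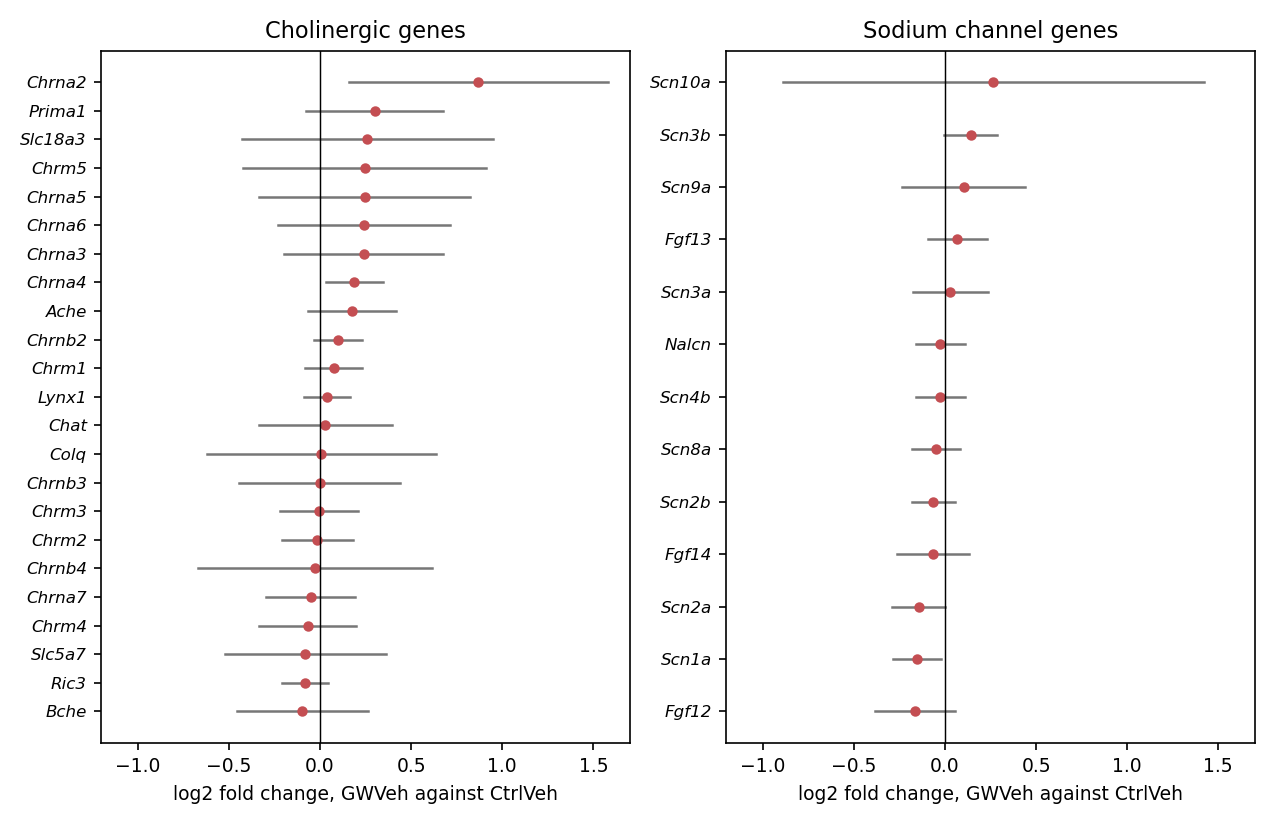
Log2 fold change of GWVeh against CtrlVeh with its 95% interval (x axis) for 23 cholinergic genes (left) and 13 sodium channel genes (right). Most intervals include 0, and those of Chrna2, Chrna4 and Scn1a do not, before adjustment over all genes.

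Genes of protein synthesis and the cytoskeleton lay higher in GWVeh on average, together with a gradient over base composition. Of 79 cytosolic ribosomal protein genes tested, 74 had a positive log2 fold change, 28 were higher and 0 lower at an unadjusted p under 0.05, against 4.81% higher and 3.98% lower over all genes, and the median was 0.15. The 28 became 10 without GWVeh1, 16 without GWVeh2 or CtrlVeh2, 18 without CtrlVeh3 and 42 without GWVeh4. Over all genes the 964 higher became 714, 630 or 570, 969 and 1379 in the same order. Rps2, of the small subunit, stood at 187, 171 and 182 CPM in CtrlVeh and at 250, 254, 199 and 201 CPM in GWVeh (0.33 ± 0.08, adjusted p = 0.39), and its reads can be shared with pseudogene copies such as Rps2-ps10. Rpl13, of the large subunit, stood at 211, 200 and 213 CPM against 279, 275, 238 and 222 CPM (0.28 ± 0.08). GWVeh1 and GWVeh2 were the highest for both. The summed list lay at 8876 to 9595 CPM in CtrlVeh and at 11550, 10970, 9496 and 9175 CPM in GWVeh, so that GWVeh3 and GWVeh4 stood within the control range. Without GWVeh1 and GWVeh2 the list held 0 members higher and 1 lower with a median of 0.01, and after LPS 0 were higher and 3 lower with a median of -0.06.

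Of 28 microtubule and axonal transport genes, 9 were higher and 0 lower, against 4.81% and 3.98% over all genes, with a median of 0.11. Leaving out any library but GWVeh4 lowered the 9 to between 3 and 5, and leaving out GWVeh4 gave 12. Over all genes leaving out GWVeh4 raised the 964 higher to 1379. Tubb5, a broadly expressed beta-tubulin, lay at 350 to 390 CPM in CtrlVeh and at 403 to 456 CPM in GWVeh (0.24), and Tubb2a and the neuronal Tubb3 had log2 fold changes of 0.22 and 0.19. Presynaptic vesicle genes held 5 of 24 higher (median 0.08), led by Slc17a6, Syp and Syn1, and postsynaptic density genes 4 of 21 (median 0.03), led by Dlgap3, Lrrtm1 and Dlg4. Fits without single libraries gave 2 to 6 presynaptic members, with 2 without CtrlVeh2 or CtrlVeh3. They gave 1 to 3 postsynaptic ones, with 1 without GWVeh3. In the LPS libraries microtubule genes held 1 higher and 0 lower (median -0.03), against 3.86% each over all genes. Presynaptic genes held 0 higher and 1 lower there (-0.01), and postsynaptic genes 0 higher and 2 lower (-0.04). Nuclear-encoded oxidative phosphorylation genes held 58 of 69 with a positive sign and a median of 0.06, but the 4 at an unadjusted p under 0.05 are near the 4.81% over all genes. That count was 1 without CtrlVeh2 or GWVeh1, 8 without CtrlVeh1 and 10 without GWVeh4. Over all genes those fits gave 570, 714, 823 and 1379 higher.

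The base composition of transcripts moved with this comparison. When genes at a mean log2 CPM of at least 2 were sorted by GC content, the median log2 fold change went from -0.10 in the lowest of 10 equal bins (median GC 41.0%) to 0.11 in the highest (59.9%), and the share of genes higher in GWVeh from 15.2% to 81.5%. After LPS the same medians were -0.01 and 0.01. The GC contrast of each library, the median log2 deviation of the highest bin minus that of the lowest, was -0.17, -0.26 and -0.03 in CtrlVeh and 0.18, 0.12, 0.05 and -0.11 in GWVeh. With the difference fitted after a smooth correction for GC content in every library, 0 genes passed and 1285 were at an unadjusted p under 0.05. Under that correction the ribosomal list held 26 members higher (median 0.13) and the immediate-early list 7 lower and 1 higher (median -0.20), while microtubule genes went from 9 to 2 (median 0.07), presynaptic from 5 to 2 (0.03) and postsynaptic from 4 to 1 (-0.0038). Over all genes the share at an unadjusted p under 0.05 went from 8.8% to 6.55% with it, 696 higher and 589 lower of 19617. Of the 176 genes passed by limma voom, the 94 higher had a median GC of 57.4% and the 82 lower of 43.3%, against 50.2% for all genes. Among the genes with the smallest p, those higher in GWVeh ran from 50.45% (Calr) to 60.9% (Arhgap33), with Hap1 at 58.4% and Celf6 at 57.4%. Those lower ran from 40.6% (Slco1a4) to 54.6% (Nr4a3), with Arl5b at 40.65%, Med13 at 41.8% and Fosl2 at 53.1%. What the gradient contributes to these and the other differences was not tested.

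**Figure D4:**
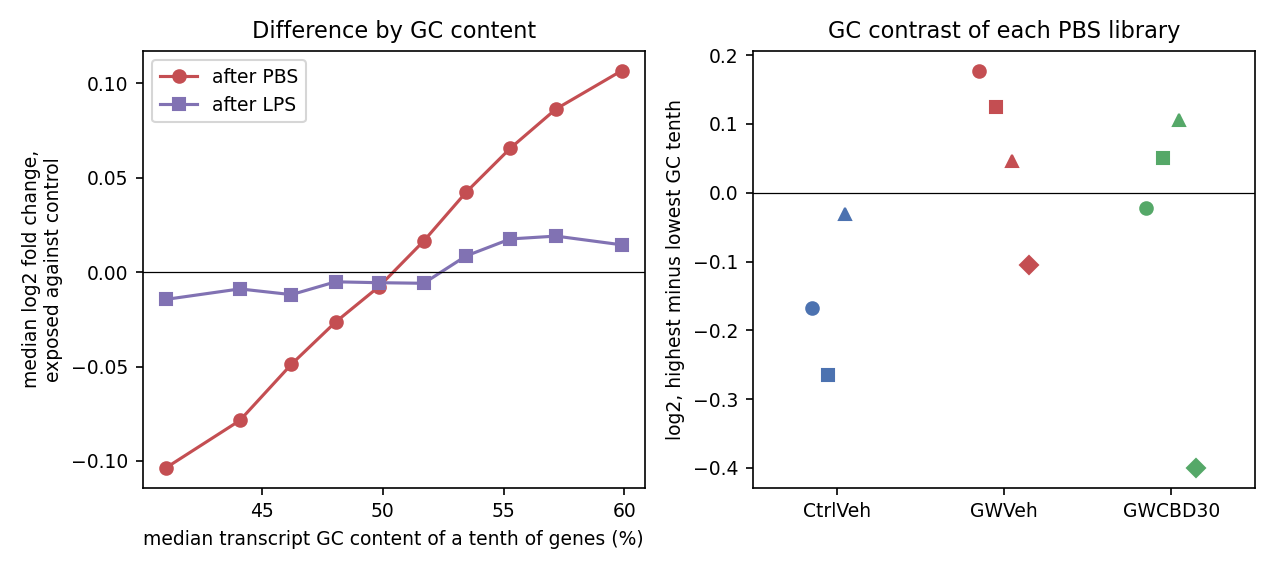
Left, median log2 fold change of exposed against control (y axis) in 10 bins of genes ordered by transcript GC content (x axis, %), after PBS (red) and after LPS (violet). Right, GC contrast (log2, highest minus lowest bin) of each PBS library, with marker shapes for replicates 1 to 4: GWVeh1, GWVeh2 and GWVeh3 lie above all 3 CtrlVeh libraries and GWVeh4 does not.

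Stress-related lists leaned in separate directions. Of 28 heat shock and unfolded protein response genes, 7 were higher and 1 lower at an unadjusted p under 0.05, against 4.81% and 3.98% over all genes, with a median of 0.09. The 7 became 1 without GWVeh3, 3 without CtrlVeh2 or CtrlVeh3 and 4 without GWVeh1. After Calr, the smallest p belonged to Atf3, a stress-induced transcription factor, at 1.42, 1.11 and 2.13 CPM in CtrlVeh and 0.276, 0.753, 0.663 and 0.962 CPM in GWVeh (-1.23 ± 0.40, adjusted p = 0.441). Its groups did not overlap, and after LPS it was at 0.15. Dnajb11, an endoplasmic reticulum co-chaperone, was at 0.18. The list held 0 members higher and 0 lower after LPS, against 3.86% each over all genes, with a median of 0.003.

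Glucocorticoid-responsive genes, induced through the glucocorticoid receptor, had 18 of 20 members with a negative sign, 4 lower against 3.98% over all genes, 0 higher, and a median of -0.14. The 4 became 2 without CtrlVeh2, where 485 were lower over all genes against 798 in the main fit. After LPS 11 of 20 had a negative sign, with 6 lower, 1 higher and a median of -0.01, against 3.86% lower and 3.86% higher over all genes. Tsc22d3, which encodes the glucocorticoid-induced leucine zipper, stood at 62.9, 65.9 and 67.8 CPM in CtrlVeh and at 60.1, 57.6, 54.95 and 54.4 CPM in GWVeh, without overlap (-0.21 ± 0.07, adjusted p = 0.441). Per1, a clock gene that is also an immediate-early and a glucocorticoid target, stood at 111, 117 and 111 CPM against 114, 85.8, 87.9 and 94.8 CPM, low in all but GWVeh1 (-0.24 ± 0.08). Klf9, a Krüppel-like factor, was at -0.19. Of 22 circadian genes 4 were lower, Per1, Per2 and Clock among them, and the median was -0.03. The hour at which brains were taken is not given in the sources used here.

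Without LPS each inflammatory and microglial list held at most 2 members higher and at most 2 lower at an unadjusted p under 0.05. Over all genes 4.81% were higher and 3.98% lower, and any share of these short lists rests on few genes. Complement held 0 of 17 genes at an unadjusted p under 0.05 and a median of -0.03. Interferon-stimulated genes held 1 of 38, Ifi27, with a median of -0.03 that turned to 0.10 without CtrlVeh3 and to 0.01 without GWVeh2. After LPS 9 of 38 were higher, against 3.86% over all genes, with a median of 0.39. Leaving out CtrlVehLPS replicate 1 gave 3 and 0.23, beside 495 higher of 20601 over all genes. Homeostatic microglia genes held 1 of 21 higher and 2 lower, with summed levels of 442 to 467 CPM in CtrlVeh and 421 to 482 CPM in GWVeh, and a median of 0.07 that was -0.02 with the GC correction. The members with the smallest p were the TGF-beta receptor Tgfbr1 (-0.32), the protease Ctss (-0.30) and Olfml3 (0.29).

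Of 19 tested cytokine, chemokine and NF-kB genes 2 were lower and 0 higher, against 3.98% and 4.81% over all genes. Tlr4, the receptor for LPS, stood at 2.28, 2.03 and 1.82 CPM in CtrlVeh and at 0.826, 1.16, 0.912 and 1.66 CPM in GWVeh, without overlap (-0.83 ± 0.30). Ccl3, a microglial chemokine, was in every GWVeh library at or under 3 reads and gives no usable ratio. Disease-associated microglia genes held 2 of 27 higher, the lipid carrier Apoe (0.26) and Gpnmb (0.40), and 1 lower. Antigen presentation genes held 2 of 16 higher, Tap1 (0.47) and H2-DMa (0.26), and 0 lower.

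Vascular, myelin and regional markers completed the picture. Among 21 endothelial genes 1 was higher and 1 lower at an unadjusted p under 0.05, against 4.81% and 3.98% over all genes. Slco1a4, an organic anion and thyroid hormone transporter of the blood-brain barrier, stood at 24.0, 25.1 and 25.6 CPM in CtrlVeh and at 17.2, 18.7, 18.6 and 20.4 CPM in GWVeh (-0.41 ± 0.10, adjusted p = 0.379), and was at 0.13 after LPS. Cldn5, the tight-junction claudin of brain endothelium, lay the other way, at 13.04, 10.7 and 15.8 CPM against 21.99, 18.8, 18.5 and 16.1 CPM (0.51 ± 0.13, adjusted p = 0.39). Neither overlapped, and Cldn5 had a log2 fold change of 0.54 after LPS as well (adjusted p = 0.168). Transcript GC was 60.5% for Cldn5 and 40.6% for Slco1a4, at opposite ends of the gradient above.

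Hypothalamic neuropeptide genes had 17 of 18 members with a positive sign and 4 higher at an unadjusted p under 0.05, against 4.81% over all genes, with a median of 0.20. After LPS 8 were positive and 10 negative, with a median of -0.07. Trh, the thyrotropin-releasing hormone precursor, stood at 5.18, 6.22 and 5.20 CPM in CtrlVeh and at 10.7, 13.1, 10.4 and 6.34 CPM in GWVeh (0.87 ± 0.19, adjusted p = 0.29). GWVeh4 exceeded the highest control only narrowly. Cartpt, an appetite-related peptide, stood at 6.32, 5.30 and 4.11 CPM against 14.3, 17.1, 10.0 and 4.90 CPM (1.15 ± 0.32, adjusted p = 0.441). Oxytocin, Oxt, stood at 3.87, 2.77 and 2.33 CPM against 4.82, 9.04, 11.9 and 3.11 CPM (1.29 ± 0.50). For both, GWVeh4 was within the control range. In the LPS libraries Trh was at 13.5, 11.03 and 12.2 CPM in controls and at 10.1, 12.2, 10.9 and 7.74 CPM in exposed mice, so that the CtrlVeh libraries held the lowest levels of the 4 groups. Most of the hypothalamic list shared the positive sign, but some members lay near 0, with Npy at 0.03 ± 0.15, Vip at 0.06 ± 0.12 and Sst at 0.12 ± 0.09. The amount of hypothalamus in each sample was not tested.

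Other regional and cellular markers also shifted. Cerebellar neuron genes had a median of -0.27 with none at an unadjusted p under 0.05, summing to 3215, 3457 and 3717 CPM in CtrlVeh and to 3474, 2615, 2550 and 3290 CPM in GWVeh. Olfactory bulb neuron genes had a median of 0.24. Myelin genes held 4 of 25 higher, against 4.81% over all genes, and 21 positive (median 0.19). The 4 became 1 without CtrlVeh2, 2 without CtrlVeh1, GWVeh1 or GWVeh2, and 9 without GWVeh4. Over all genes 570 were higher without CtrlVeh2 and 1379 without GWVeh4, against 964 in the main fit. Without GWVeh1 and GWVeh2 together 0 were higher, with a median of 0.05. Red blood cell genes had a median of 0.93, which was 0.02 without those libraries, and globin made up 0.0732% of counts in GWVeh1 against 0.0125% to 0.0238% in the other 6. The part of tissue composition in the gene differences was not tested.

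**Figure D5:**
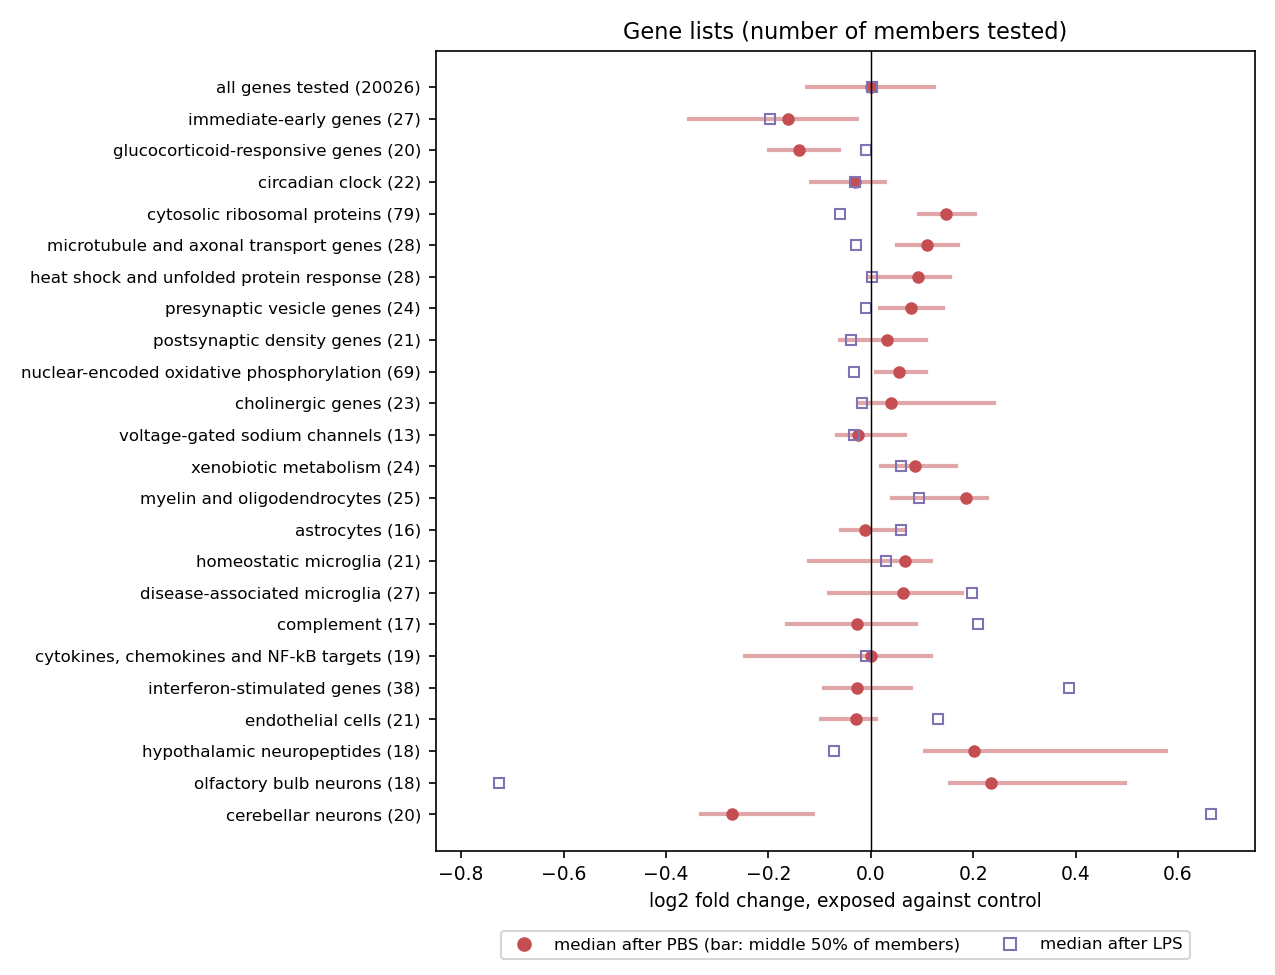
Median log2 fold change of exposed against control (x axis) for all genes and selected gene lists, after PBS (red points, bars spanning the middle 50% of members) and after LPS (open squares). Immediate-early genes lie left of 0 in both, ribosomal protein genes right of 0 after PBS and left of it after LPS, and interferon-stimulated genes close to 0 after PBS, on a side that changes with the library left out, and right of it after LPS.

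Exposed mice given cannabidiol at 30 mg/kg and then PBS (GWCBD30) are compared with libraries already used above, so their values are only set side by side. Nr4a3 in GWCBD30 was at a log2 fold change of -0.58 against CtrlVeh and 0.13 against GWVeh, and Fosl2 at -0.21 and 0.33. Arl5b was at -0.27 and 0.26, Hap1 at 0.20 and -0.22, and Trh at 0.39 and -0.47. None of these passed the adjusted threshold.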

How the data were processed

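Poly(A)-selected, stranded RNA-seq of whole mouse brain was deposited by the authors as 1 table of raw read counts per gene, with 22 libraries and 56748 genes. The genome build was GRCm38 (mm10) per the submitters' processing notes; which aligner, counter, strand setting or annotation was used is not given in the sources used here. Libraries were required to have an RNA integrity number of at least 8.5 and were read in 150-base pairs, per the labels' protocols. Labels describe each library as a separate mouse. Counts of 7 libraries ranged from 17426178 to 25531445, and intervals cover the spread between mice as modelled. 0 columns were unused.

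From the counts, edgeR 4.0.16 (R 4.3.3) was run with filterByExpr, TMM scaling and robust quasi-likelihood fits of 6 group means over all 22 libraries, with Benjamini-Hochberg adjustment over 20026 genes and a threshold of 0.05. Standard errors and 95% intervals come from that fit. Alternatives used limma 3.58.1 and DESeq2 1.42.0, other scalings and filters, fewer libraries, a replicate block and, chosen after seeing the data, a GC correction and leaving out GWVeh1 and GWVeh2 together. The fits were tested on simulated data. GC content and gene coordinates came from GENCODE M21 (52125 of 56748 identifiers), and promoters from RefSeq.

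The rule for named genes was the 15 largest changes per direction past the threshold and, where fewer than 8 passed, the smallest p up to 8 with a proper symbol; in each gene list, the 3 members with the smallest p, and any cholinergic or sodium channel gene. A member outside that rule was chosen after its values were seen. These include the immediate-early genes beyond Fosl2, Nr4a3 and Nr4a2, and Npy, Vip and Sst of the hypothalamic list. The comparison and the 56 gene lists were chosen with earlier results of these data known, so list counts are descriptions. Overlapping and antisense genes are uncertain, since the strand setting is not known. Some genes of the sodium channel list are not reported here and do not enter its counts.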

Additional observations from a re-analysis of the deposited data

Results flagged for a closer look

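Of 138 measures examined over the 4 GWVeh libraries for a library far from the other 3, 5 had such a value, and chance gives about 1 in 20. GWVeh2 had the lowest Fosl2 level, 21.1 CPM against 28.6 to 29.7 in the other exposed libraries. GWVeh1 had the highest Klf4 level, 3.35 CPM against 2.40 to 2.41. GWVeh4 had the lowest level of Slc18a3, the vesicular acetylcholine transporter, 3.94 CPM against 6.38 to 6.63. GWVeh2 had the highest level of Colq, the collagen tail of acetylcholinesterase, 3.46 CPM against 1.78 to 2.02. The summed level of reactive astrocyte genes was lowest in GWVeh4, 498 CPM against 640 to 666.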

How the results depend on the processing

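The count of 0 genes past an adjusted p of 0.05 stayed at 0 with RLE or upper-quartile scaling, a strict filter, the 7 libraries alone, CtrlVehLPS replicate 1 left out, a threshold of 0.1, the GC correction, and GWVeh1 and GWVeh2 left out together. It was 36 without a filter on low counts, 7 with DESeq2 (Hap1, Celf6, Calr, Trh, Arl5b, Fosl2 and Nr4a3), 176 with limma voom and 1 in the 11 PBS libraries (Nr4a3). Leaving out single libraries gave 0 to 12, with 12 without GWVeh4 and 1 without CtrlVeh2. The replicate block gave 9, but same-numbered libraries correlated at -0.021, -0.029 and -0.006, so the numbers were not taken to pair the mice. After LPS the count of 1 became 9 with the replicate block, 0 to 24 without single libraries, 9 at a threshold of 0.1 and 6 with the GC correction. Without CtrlVehLPS3, GWVehLPS1 and GWVehLPS4 it was 24, 6 and 3, and without each of the other 4 LPS libraries 0. The difference between states stayed at 0 in every setting run. The causes were not tested. None of the 16 genes with the smallest p, for which a kept sign was nearly fixed in advance, changed sign in the 20 settings. List medians near 0 did: interferon-stimulated genes ran from -0.10 to 0.10 without single libraries, and with the GC correction sodium channel genes went to 0.04, postsynaptic genes to -0.0038 and homeostatic microglia to -0.02. Depths of 17426178 to 25531445 counts, the number of mice and their spread limit differences of low genes such as Scn10a.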
